A study of Mus musculus with 16 samples.

Results

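Dbh, dopamine beta-hydroxylase, makes noradrenaline from dopamine. It was examined in right atria (RA) and left atria (LA) of adult mice together with 8 other genes of catecholamine synthesis, adrenergic or cholinergic signalling and neuron-linked signalling, namely Th, Ddc, Pnmt, Adrb1, Gng13, Vsnl1, Rgs6 and Chrm2. Every probe annotated to these 9 genes was taken. This gave 9 probes of 8 genes among 25697 probes on the array, of which 23978 carried 1 gene name, for 16593 named genes. Chrm2 had 2 probes, and no probe carried the name Adrb1, so that this receptor was not analysed here. The genes were chosen by their roles and by the RA and LA values of these same arrays. RA minus LA of these genes is therefore a description, and so are the counts of them that passed and their difference between the strains.

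The study compared RA with LA of healthy wild type mice of 2 outbred strains, MF1 (dataset MF1_12) and Swiss Agouti (dataset SA_12), on Illumina MouseRef-8 arrays. There were 4 RA and 4 LA arrays for each strain, 16 in all, and no sample was pooled. The labels give an age of 12 months for all mice, whereas the text of the study's methods gives a younger age, in weeks, for Swiss Agouti mice. The study lists the MF1 mice as male and the Swiss Agouti mice as female, so that strain and sex cannot be told apart. No mouse carried a transgene, a deletion or a treatment.

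In sympathetic neurons and in chromaffin cells of the adrenal medulla, Th makes L-DOPA from tyrosine, Ddc makes dopamine from it, Dbh makes noradrenaline inside storage vesicles, and Pnmt makes adrenaline from noradrenaline. Noradrenaline raises heart rate and force through beta-adrenergic receptors, while acetylcholine slows the heart through the M2 muscarinic receptor, the product of Chrm2, which acts on Gi and Go proteins and on a potassium channel of the sinus node and atria. RGS proteins such as Rgs6 shorten that signal. The cell bodies of most sympathetic neurons of the heart lie in ganglia outside it, and the ganglia on the atria hold mainly cholinergic neurons. Atria were measured whole, so that more cells of a type and more RNA per cell cannot be told apart.

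The 300 bases around the start of Dbh (250 before it, 50 after it) were taken from RefSeq (GRCm38.p6, chr2:27165257-27165556, plus strand), and are shown because Dbh carried the largest side difference of the 9 probes in both strains. Those of Th (chr7:142899946-142900245, minus strand) are shown because Th opens the pathway that Dbh belongs to and did not follow it. Those of Gng13 (the first of 2 listed starts, chr17:25716922-25717221, plus strand) and Rgs6 (chr12:82617249-82617548, plus strand) are shown because these genes were also higher in RA. Each sequence runs 5′ to 3′ along the strand of its gene, and capitals mark matches to TAATTG, a homeodomain type motif, to TAATCC, a bicoid type motif, or to TGACGTCA, the cAMP response element, on either strand.
Dbh: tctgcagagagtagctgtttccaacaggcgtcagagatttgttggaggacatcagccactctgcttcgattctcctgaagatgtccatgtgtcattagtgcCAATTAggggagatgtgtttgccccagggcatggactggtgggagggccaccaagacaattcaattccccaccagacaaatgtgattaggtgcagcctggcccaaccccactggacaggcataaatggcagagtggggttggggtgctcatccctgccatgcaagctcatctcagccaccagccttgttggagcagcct
Th: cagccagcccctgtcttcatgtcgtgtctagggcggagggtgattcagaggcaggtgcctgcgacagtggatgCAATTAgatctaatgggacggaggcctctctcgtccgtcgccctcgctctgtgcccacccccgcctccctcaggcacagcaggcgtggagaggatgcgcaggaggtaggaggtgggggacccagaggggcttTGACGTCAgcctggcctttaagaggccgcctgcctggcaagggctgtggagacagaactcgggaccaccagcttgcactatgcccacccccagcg
Gng13: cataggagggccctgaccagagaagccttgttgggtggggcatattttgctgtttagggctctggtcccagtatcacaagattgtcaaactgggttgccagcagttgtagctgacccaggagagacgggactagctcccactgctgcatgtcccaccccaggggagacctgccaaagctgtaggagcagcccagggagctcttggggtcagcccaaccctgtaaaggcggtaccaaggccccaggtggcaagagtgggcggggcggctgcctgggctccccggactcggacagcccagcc
Rgs6: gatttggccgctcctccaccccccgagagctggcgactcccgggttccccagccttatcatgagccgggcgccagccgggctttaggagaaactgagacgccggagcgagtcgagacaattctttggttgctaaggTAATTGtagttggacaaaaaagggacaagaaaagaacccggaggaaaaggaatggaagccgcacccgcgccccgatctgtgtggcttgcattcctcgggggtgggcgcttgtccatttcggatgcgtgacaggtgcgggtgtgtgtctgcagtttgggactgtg
Dbh held 1 match to TAATTG, on the minus strand, with its first base at position -149 from the start, and Th held 1 on the minus strand at -177. Rgs6 held 1 on the plus strand at -114. Th also held TGACGTCA at -45, and the window of Gng13 held none of the 3 motifs. No 2 matches overlapped. TAATTG stood in 8.0% of the 32851 RefSeq promoter windows of this length, TGACGTCA in 1.79% and TAATCC in 7.06%. TAATTG was added to the search after the sequences had been seen. The windows not shown, those of Ddc, Vsnl1, Adrb1 and Chrm2 and the second of Gng13, held no TAATTG. Among these, Vsnl1 was also higher in RA of MF1 mice, and the window of Chrm2 held TAATCC at -132. A match describes letters and shows no binding.

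Of the 4 enzymes of the pathway, Dbh alone stood apart between the sides. Values are log2 signals after quantile normalization, set relative to the median of each probe, so that 0 is a typical array and no level can be compared between genes or strains. In MF1 mice, Dbh had values of 1.31, 0.96, 1.37 and 0.66 in RA, against -1.46, -1.46, -1.13 and -1.38 in LA. The means were 1.07 ± 0.33 in RA and -1.36 ± 0.15 in LA (SD, n = 4 each). RA arrays did not overlap LA arrays, and the lowest RA value lay 1.79 above the highest LA value. The difference of RA minus LA was 2.43 (SE 0.16), a 5.39-fold higher signal in RA, which placed the probe at rank 8 of all 25697 probes towards RA.

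In Swiss Agouti mice, Dbh had values of 0.48, 0.88, 0.91 and 0.96 in RA, against -0.75, -1.02, -0.52 and -0.55 in LA. The means were 0.81 ± 0.22 in RA and -0.71 ± 0.23 in LA (SD, n = 4 each). RA minus LA came to 1.51 (SE 0.13), a 2.86-fold higher signal in RA and rank 15 towards RA. Again the sides did not overlap, with a gap of 0.99 between the lowest RA and the highest LA array. RA was higher in each of the 4 pairs of arrays that share a number in both strains. Leaving out any 1 array kept RA minus LA between 2.33 and 2.57 in MF1 and between 1.41 and 1.62 in Swiss Agouti.

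**Figure D1:**
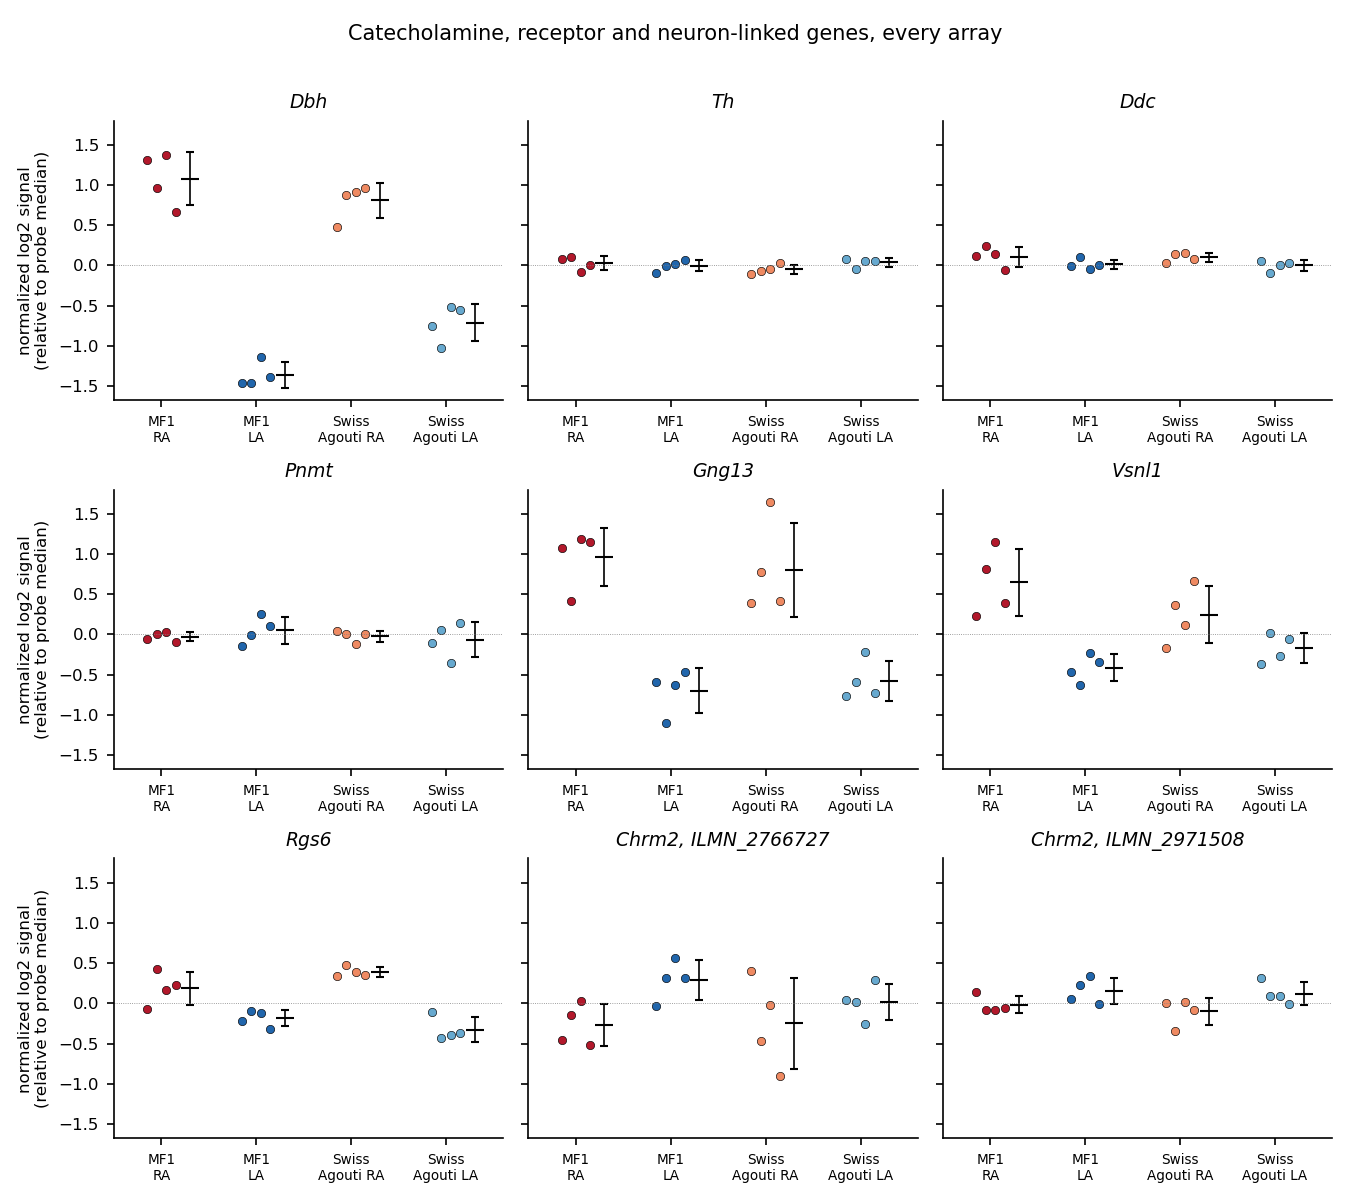
Normalized log2 signal relative to the probe median (vertical axis) of the 9 probes in each array, with RA left of LA for MF1 and then Swiss Agouti. Points are single arrays and bars show mean ± SD (n = 4). Dbh and Gng13 separate RA from LA in both strains, while Th, Ddc and Pnmt lie near 0 in every array.

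Th, the rate-limiting enzyme at the start of catecholamine synthesis, showed no such pattern. It had values of 0.08, 0.11, -0.08 and 0.01 in RA and -0.09, -0.01, 0.02 and 0.07 in LA of MF1 mice. In Swiss Agouti mice it had -0.10, -0.07, -0.04 and 0.03 in RA and 0.08, -0.04, 0.05 and 0.06 in LA. The sides overlapped in both strains. Their difference was 0.03 (SE 0.06) in MF1 and -0.08 (SE 0.05) in Swiss Agouti. The whole spread of Th over 8 arrays, 0.075 in MF1 and 0.068 in Swiss Agouti as an SD, was larger than that of 29.7% and 27.2% of all probes. Since the deposited values carry no level, a probe near background and a gene with an even signal cannot be told apart here.

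Ddc, which makes dopamine and also serotonin, had values of 0.12, 0.24, 0.14 and -0.06 in RA and -0.01, 0.10, -0.04 and 0.00 in LA of MF1 mice. In Swiss Agouti mice it had 0.03, 0.14, 0.15 and 0.08 in RA and 0.05, -0.09, 0.01 and 0.03 in LA. The sides overlapped in both strains, with RA minus LA of 0.10 (SE 0.07) in MF1 and 0.10 (SE 0.05) in Swiss Agouti. Pnmt, which makes adrenaline, had values of -0.05, 0.01, 0.03 and -0.09 in RA and -0.14, -0.01, 0.25 and 0.11 in LA of MF1 mice. Swiss Agouti mice had 0.04, 0.00, -0.12 and 0.00 in RA and -0.10, 0.05, -0.35 and 0.14 in LA. LA arrays enclosed the RA arrays in both strains, and RA minus LA was -0.08 (SE 0.08) in MF1 and 0.05 (SE 0.10) in Swiss Agouti.

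Gng13, a gamma subunit of heterotrimeric G proteins known from taste receptor cells and retinal neurons, showed the next largest side difference. In MF1 mice its values were 1.07, 0.42, 1.18 and 1.15 in RA, against -0.59, -1.10, -0.62 and -0.47 in LA. In Swiss Agouti mice they were 0.39, 0.77, 1.64 and 0.42 in RA, against -0.76, -0.59, -0.22 and -0.72 in LA. RA arrays lay above all LA arrays in both strains, by 0.89 in MF1 and 0.62 in Swiss Agouti. The mean difference was 1.65 (SE 0.19) in MF1, a 3.14-fold higher signal in RA and rank 15 of all probes. In Swiss Agouti it was 1.38 (SE 0.25), a 2.60-fold higher signal in RA and rank 19. The array with the lowest value of each side in MF1 carried the same number, 2, and so did the highest of each side in Swiss Agouti, number 3, so that the differences within numbers kept to 1.52 to 1.80 in MF1 and 1.14 to 1.87 in Swiss Agouti.

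Vsnl1, a calcium sensor of the visinin type found in neurons and also in the sinus node, was higher in RA of MF1 mice, with values of 0.23, 0.81, 1.15 and 0.39 in RA, against -0.46, -0.62, -0.23 and -0.34 in LA. The difference was 1.06 (SE 0.19), a 2.08-fold higher signal in RA, with no overlap of the sides. Vsnl1 in Swiss Agouti mice had -0.17, 0.36, 0.12 and 0.66 in RA and -0.37, 0.02, -0.27 and -0.05 in LA. There the sides overlapped through the first RA array, although RA was higher within all 4 numbers, and RA minus LA was 0.41 (SE 0.16), or 1.33-fold.

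Rgs6, of the R7 class of RGS proteins, had the tighter separation in Swiss Agouti mice, with values of 0.34, 0.48, 0.39 and 0.35 in RA, against -0.10, -0.43, -0.39 and -0.37 in LA. The side difference was 0.71 (SE 0.07), a 1.64-fold higher signal in RA. In MF1 mice Rgs6 had -0.07, 0.43, 0.17 and 0.23 in RA and -0.22, -0.09, -0.12 and -0.31 in LA. The sides were there apart by only 0.02, and RA minus LA was 0.37 (SE 0.10).

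Chrm2, the M2 receptor, had mean differences below 0 at both probes, with sides that overlapped in both strains. Its probe ILMN_2766727 had values of -0.45, -0.14, 0.03 and -0.51 in RA of MF1 mice, against -0.03, 0.32, 0.56 and 0.32 in LA. The difference was -0.56 (SE 0.15), a 1.48-fold higher signal in LA, and LA was higher within all 4 numbers although the sides overlapped by 0.06. This probe in Swiss Agouti mice had 0.40, -0.47, -0.02 and -0.90 in RA and 0.04, 0.02, -0.26 and 0.29 in LA. The RA arrays were widely spread there, on both sides of the LA arrays, and RA minus LA was -0.27 (SE 0.24), with RA higher in 2 of the 4 numbers. The second probe, ILMN_2971508, had 0.14, -0.08, -0.08 and -0.05 in RA and 0.06, 0.23, 0.34 and -0.01 in LA of MF1 mice, and 0.01, -0.34, 0.02 and -0.08 in RA and 0.32, 0.09, 0.09 and -0.01 in LA of Swiss Agouti mice. Its sides overlapped in both strains, with RA minus LA of -0.17 (SE 0.09) and -0.22 (SE 0.09).

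A probe was counted as passed at an adjusted p under 0.05 (limma, Benjamini-Hochberg over all probes) and a fold-change above 1.5. In MF1 3 of the 9 probes passed, those of Dbh, Gng13 and Vsnl1, where 0.79% of all probes did (203 of 25697). In Swiss Agouti 3 of 9 passed, those of Dbh, Gng13 and Rgs6, where 0.63% of all probes did (162 of 25697). All were higher in RA, where 0.494% of all probes in MF1 and 0.342% in Swiss Agouti passed in that direction, and 0.296% and 0.288% passed as higher in LA. RA arrays lay above all LA arrays for 4 of the 9 probes in MF1 and 3 in Swiss Agouti, beside 3.77% and 3.71% of all probes. These counts follow from the choice of the genes, and nothing is read from them. By size, the probes that passed ran down to Vsnl1 at 2.08-fold in MF1 and Rgs6 at 1.64-fold in Swiss Agouti, and the next, which did not pass, were Chrm2 at 1.48-fold in MF1 and Vsnl1 at 1.33-fold in Swiss Agouti. Vsnl1 no longer passed in MF1 when LA array 1, 3 or 4 or RA array 2, 3 or 4 was left out (RA minus LA 0.89 to 1.20 over the 8 arrays left out in turn), nor did Gng13 in Swiss Agouti without LA array 1 or 2 or RA array 2 (1.10 to 1.52).

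**Figure D2:**
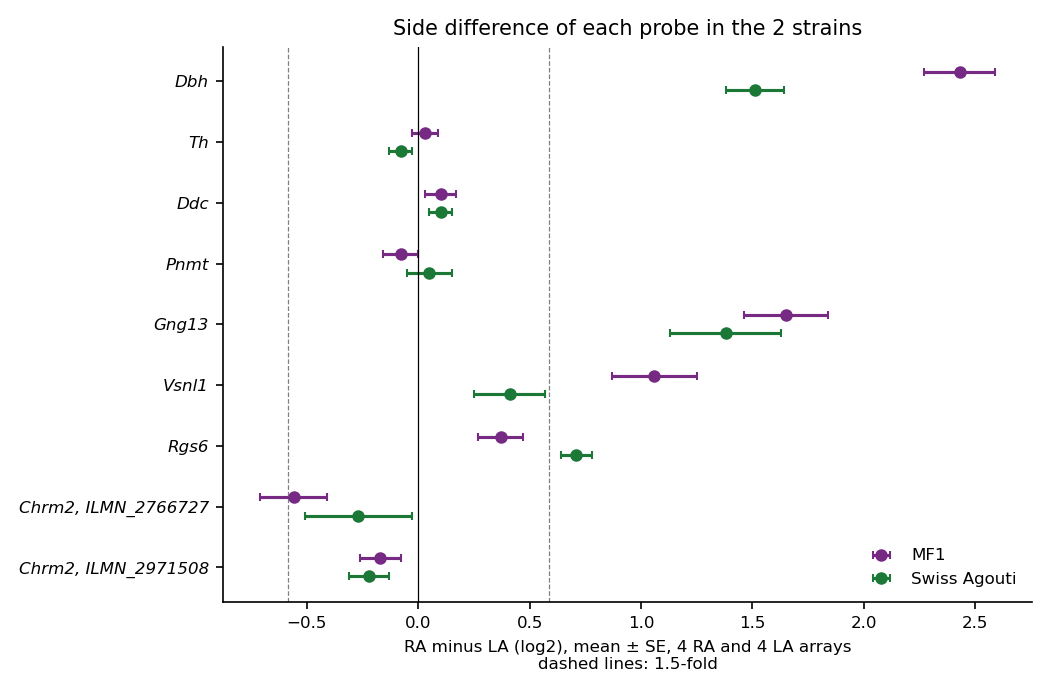
RA minus LA in log2 (horizontal axis) of the 9 probes, with MF1 above Swiss Agouti for each probe and bars of 1 SE (4 RA and 4 LA arrays). Dashed lines mark a 1.5-fold difference, and values right of 0 are higher in RA. Dbh stands at 2.43 in MF1 and 1.51 in Swiss Agouti.

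The side difference of MF1 minus that of Swiss Agouti was estimated in 1 fit of all 16 arrays. Its values for the 9 probes rest on the arrays by which the genes were chosen, and are given with 95% intervals and no test. For Dbh it was 0.92 (SE 0.22, 0.45 to 1.38), with the larger side difference in MF1. It was 0.65 (0.08 to 1.23) for Vsnl1 and -0.34 (-0.62 to -0.06) for Rgs6. Over all probes, a p under 0.05 before adjustment was reached by 7.37%, and 0.00778% (2 of 25697, limma) passed after it, with none of the 9 probes among them. For Gng13 it was 0.27 (-0.47 to 1.01), an interval that holds both a smaller and a clearly larger side difference in MF1. Th (0.11, -0.04 to 0.27), Ddc (0.00, -0.18 to 0.17), Pnmt (-0.13, -0.41 to 0.16) and the Chrm2 probes (-0.29, -0.96 to 0.38, and 0.05, -0.24 to 0.34) had intervals that include 0.

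The other genes of the pathway and of its signalling were described from gene lists. Each list was read without the 9 probes. Among cofactor genes of catecholamine synthesis (8 of 9 genes measured, 11 probes), none passed in either strain by limma, with 2 probes in MF1 and 3 in Swiss Agouti at an unadjusted p under 0.05, which 10.9% and 12.6% of all probes had. The median of RA minus LA was -0.07 in MF1 and -0.03 in Swiss Agouti, where all probes had 0.0 and -0.001. The gene with the largest difference was Cyb561, which renews the ascorbate that Dbh consumes. Its values in MF1 were -0.60, 0.06, -0.40 and -0.20 in RA, against 0.26, 0.63, 0.31 and 0.29 in LA, and in Swiss Agouti -0.47, -0.02, -0.13 and -0.21 in RA, against 0.32, 0.15, 0.55 and 0.24 in LA. Cyb561 was thus above RA in every LA array of both strains, the opposite side to Dbh. The difference was -0.66 (SE 0.14, limma adjusted p = 0.0715) in MF1 and -0.52 (SE 0.10, adjusted p = 0.0334, 1.44-fold) in Swiss Agouti. With the array number as a block it passed in MF1, at an adjusted p of 0.00863, and likewise without RA array 2 (difference -0.77, adjusted p = 0.0413). The second gene of the list, Gchfr, which regulates the first enzyme of tetrahydrobiopterin synthesis, had a mean of its probes of -0.27 in MF1 and -0.28 in Swiss Agouti, and no probe of it passed.

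Genes of vesicle storage, reuptake and breakdown of catecholamines (10 of 13 genes, 13 probes) had 0 passed probes in both strains, with medians of -0.03 in MF1 and -0.02 in Swiss Agouti. At an unadjusted p under 0.05 there were 1 in MF1 and 3 in Swiss Agouti. Sult1a1, a sulfotransferase, led the list by its mean over both strains, with -0.33 (SE 0.31, limma adjusted p = 0.812) in MF1 and -0.51 (SE 0.15, adjusted p = 0.14) in Swiss Agouti. Aldh2, an aldehyde dehydrogenase, came next with 0.30 (SE 0.14) and 0.12 (SE 0.08). Slc6a2, the noradrenaline transporter of sympathetic nerve endings, had 3 probes that disagreed. Its probe ILMN_2922875 had -0.29, -0.13, -0.26 and -0.31 in RA, against 0.21, 0.37, 0.23 and 0.39 in LA of Swiss Agouti mice, a difference of -0.55 (SE 0.06, limma adjusted p = 0.00151, 1.46-fold higher in LA), which came to -0.59 and passed without RA array 2. In MF1 it had -0.31 (SE 0.07, limma adjusted p = 0.0908). The other probes of Slc6a2 differed by -0.07 to 0.09 over both strains. Slc18a2, the vesicular monoamine transporter, had RA minus LA of -0.02 (SE 0.06) in MF1 and 0.04 (SE 0.06) in Swiss Agouti, and Maoa, which breaks down noradrenaline, had 0.04 (SE 0.05) and -0.02 (SE 0.06).

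Among adrenergic and dopamine receptors, 7 of 13 genes were measured, with 9 probes, and none passed, with 1 in each strain at an unadjusted p under 0.05. Drd2, the D2 dopamine receptor, had values of -0.29, -0.29, -0.15 and -0.20 in RA, against 0.41, 0.12, 0.39 and 0.25 in LA of MF1 mice. The sides did not overlap, with a difference of -0.53 (SE 0.07, limma adjusted p = 0.0111) and a fold-change of 1.44, under the minimum of 1.5. In Swiss Agouti Drd2 had -0.11 (SE 0.07, limma adjusted p = 0.638), and the strain difference of -0.42 (-0.64 to -0.20) had an adjusted p of 0.265. The alpha receptor genes Adra1b and Adra2c lay between -0.08 and 0.18 in all 4 probes and both strains. Receptor kinases and arrestins (16 probes) and the cholinergic genes other than Chrm2 (15 genes, 21 probes) had 0 passed probes, with 1 in MF1 and 3 in Swiss Agouti at an unadjusted p under 0.05 in each list. Arrb2, an arrestin that uncouples receptors from G proteins, had the largest mean difference of the kinases and arrestins, 0.19 (SE 0.16, limma adjusted p = 0.777) in MF1 and 0.33 (SE 0.10, adjusted p = 0.179) in Swiss Agouti.

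Of the G protein subunits, Gng8 and Gnao1 were higher in RA as Gng13 was, while Gng5, Gna13 and Gna12 had mean differences below 0. None of the 23 other gamma and beta probes passed. At an unadjusted p under 0.05 there were 4 in MF1 and 7 in Swiss Agouti, beside 10.9% and 12.6% of all probes. Of the 23, 11 lay above 0 in MF1 and 14 in Swiss Agouti, with medians of -0.01 and 0.03. Gng5 had -0.41 in MF1 and -0.07 in Swiss Agouti. Gng8, a gamma subunit known from olfactory neurons, had 0.02, 0.20, 0.02 and 0.10 in RA, against -0.34, -0.43, -0.45 and -0.50 in LA of MF1 mice, and -0.02, 0.44, 0.33 and 0.39 in RA, against -0.09, -0.16, -0.17 and -0.23 in LA of Swiss Agouti mice. RA arrays lay above all LA arrays in both strains, though the fold-changes stayed under 1.5. RA minus LA of Gng8 was 0.52 (SE 0.06, adjusted p = 0.00379) in MF1 and 0.44 (SE 0.09, adjusted p = 0.0394) in Swiss Agouti by limma. Gngt2, a gamma subunit of cone cells, had 0.36 (SE 0.07, limma adjusted p = 0.0255) in Swiss Agouti and 0.06 (SE 0.11) in MF1 at its probe ILMN_1246056. Its other probe, ILMN_3154581, had 0.05 (SE 0.06) in Swiss Agouti and 0.00 (SE 0.07) in MF1.

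Gnao1 encodes the alpha subunit of Go, which M2 and other receptors activate, and was the 1 probe of 19 that passed in the alpha subunit list in MF1, with 0 in Swiss Agouti (5 there at an unadjusted p under 0.05). Its probe ILMN_2773191 had 0.49, 0.28, 0.42 and -0.03 in RA, against -0.39, -0.43, -0.24 and -0.71 in LA of MF1 mice, and 0.42, 0.26, 0.35 and 0.15 in RA, against -0.11, -0.37, -0.46 and 0.07 in LA of Swiss Agouti mice. The sides did not overlap in either strain. Their difference was 0.73 (SE 0.13, adjusted p = 0.0353, 1.66-fold) in MF1 and 0.51 (SE 0.11, adjusted p = 0.0453, 1.43-fold) in Swiss Agouti by limma. The call in MF1 ended without LA array 1, 3 or 4 or RA array 1, 2 or 3 (adjusted p up to 0.124), and in Swiss Agouti the probe passed without LA array 4 (adjusted p = 0.00978). The other probe of Gnao1, ILMN_2753422, had 0.61 (SE 0.14, adjusted p = 0.0902) in MF1 and 0.35 (SE 0.08, adjusted p = 0.0756) in Swiss Agouti by limma, and passed in MF1 with the array number as a block (adjusted p = 0.017) and without RA array 4 (difference 0.75, adjusted p = 0.0249). Of the 19 alpha probes, 13 lay above 0 in MF1 and 9 in Swiss Agouti, with medians of 0.04 and -0.02. Gna13 had -0.35 in MF1 and -0.26 in Swiss Agouti, and Gna12 had -0.09 and -0.21.

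**Figure D3:**
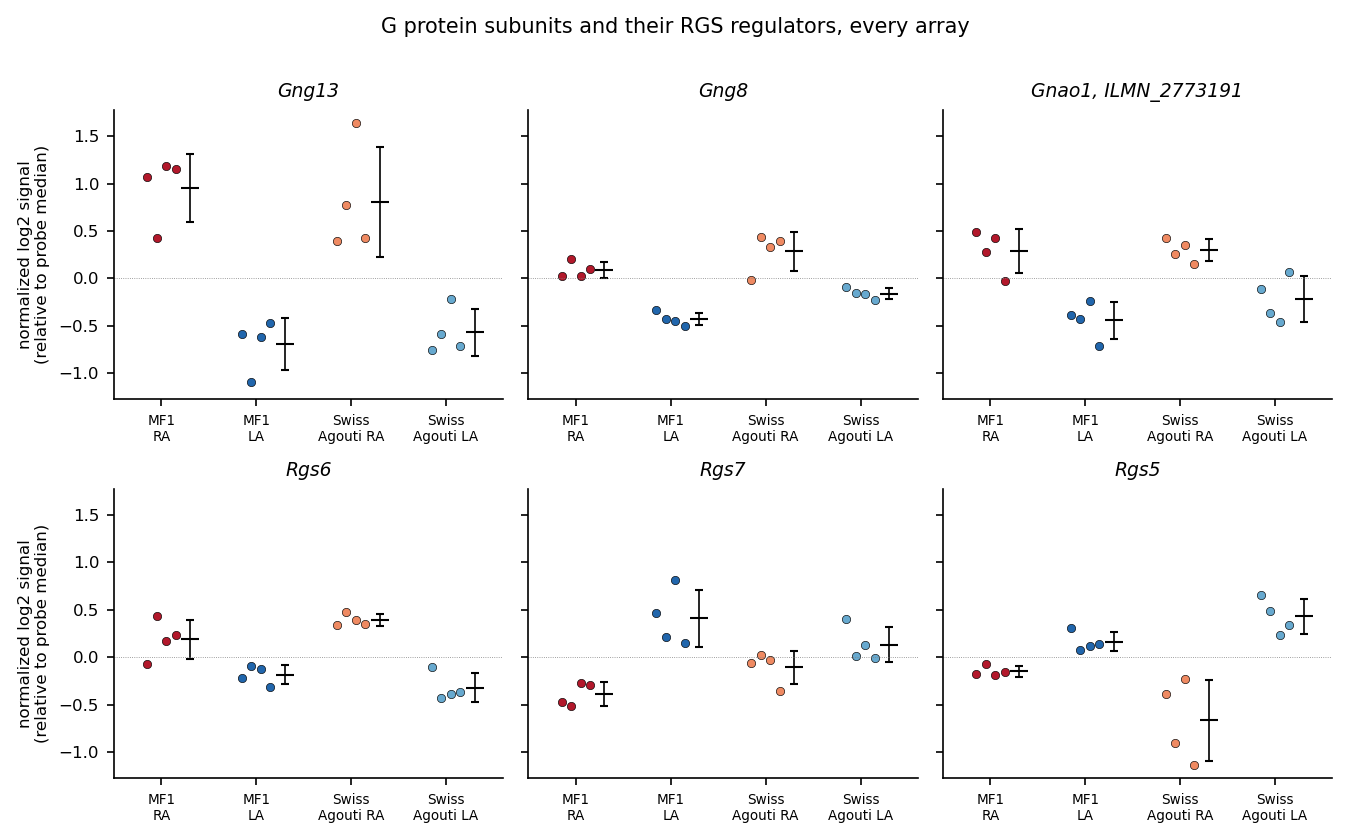
Normalized log2 signal relative to the probe median (vertical axis) of 3 G protein subunits (top) and 3 RGS genes (bottom) in each array, with RA left of LA for MF1 and then Swiss Agouti and bars of mean ± SD (n = 4). The subunits and Rgs6 are higher in RA, while Rgs7 in MF1 and Rgs5 in both strains lie lower in every RA array than in every LA array.

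Among the other RGS genes (18 genes, 30 probes), 1 probe passed in each strain, Rgs7 in MF1 and Rgs5 in Swiss Agouti, both lower in RA. Of the 30 probes, 14 lay above 0 in MF1 and 15 in Swiss Agouti, with medians of -0.01 and 0.00. Rgs7, of the same R7 class as Rgs6, had values of -0.47, -0.52, -0.27 and -0.29 in RA, against 0.47, 0.21, 0.81 and 0.15 in LA of MF1 mice, with no overlap. The difference was -0.79 (SE 0.14, limma adjusted p = 0.0335, 1.74-fold higher in LA), a call that ended without LA array 1 or any 1 RA array (adjusted p up to 0.112). In Swiss Agouti Rgs7 had -0.24 (SE 0.11, limma adjusted p = 0.375), and the strain difference of -0.55 (-0.95 to -0.15) had an adjusted p of 0.489. Rgs5, known from pericytes and vascular smooth muscle, passed in Swiss Agouti, with -0.39, -0.91, -0.23 and -1.14 in RA, against 0.66, 0.49, 0.23 and 0.34 in LA. Its RA minus LA was -1.10 (SE 0.19, limma adjusted p = 0.0152, 2.14-fold higher in LA) there and -0.31 (SE 0.06, adjusted p = 0.0493, 0.0726 with the array number as a block, 1.24-fold) in MF1. The strain difference of Rgs5, 0.78 (0.32 to 1.25), had a limma adjusted p of 0.342. Rgs4, which is abundant in neurons and restrains muscarinic signalling in the sinus node, had -0.63 (SE 0.13, adjusted p = 0.0582) in MF1 and -0.39 (SE 0.08, adjusted p = 0.0282, 1.31-fold) in Swiss Agouti by limma, and passed in MF1 with the array number as a block (adjusted p = 0.0392). Rgs17 ran the other way, with 0.42 (SE 0.07, adjusted p = 0.021, 1.33-fold higher in RA) in MF1 and 0.15 (SE 0.13, adjusted p = 0.752) in Swiss Agouti by limma. Kcnj3 and Kcnj5, the subunits of the atrial potassium channel that M2 receptors open, had -0.18 (SE 0.09) and 0.18 (SE 0.06) in MF1 and -0.16 (SE 0.07) and -0.01 (SE 0.05) in Swiss Agouti, and none of the 7 probes of that channel family passed, with 1 in each strain at an unadjusted p under 0.05.

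Of adenylyl cyclases, protein kinase A and phosphodiesterases, which carry the beta-adrenergic signal (21 of 22 genes, 31 probes), none passed in either strain. At an unadjusted p under 0.05 there were 6 in MF1 and 8 in Swiss Agouti, beside 10.9% and 12.6% of all probes. Adcy4, an adenylyl cyclase, led the list with a mean over its 3 probes of 0.21 in MF1 and 0.39 in Swiss Agouti. Probes ILMN_1250417 and ILMN_2847004 had 0.53 (SE 0.10, adjusted p = 0.0255) and 0.44 (SE 0.08, adjusted p = 0.0281) in Swiss Agouti by limma, both with folds under 1.5, the first passing without RA array 4 (difference 0.61, adjusted p = 0.0168). The neuronal calcium sensors other than Vsnl1 (12 genes, 18 probes) had 0 passed probes, with 1 in MF1 and 2 in Swiss Agouti at an unadjusted p under 0.05 and differences from -0.22 to 0.09 in MF1 and from -0.28 to 0.15 in Swiss Agouti.

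**Figure D4:**
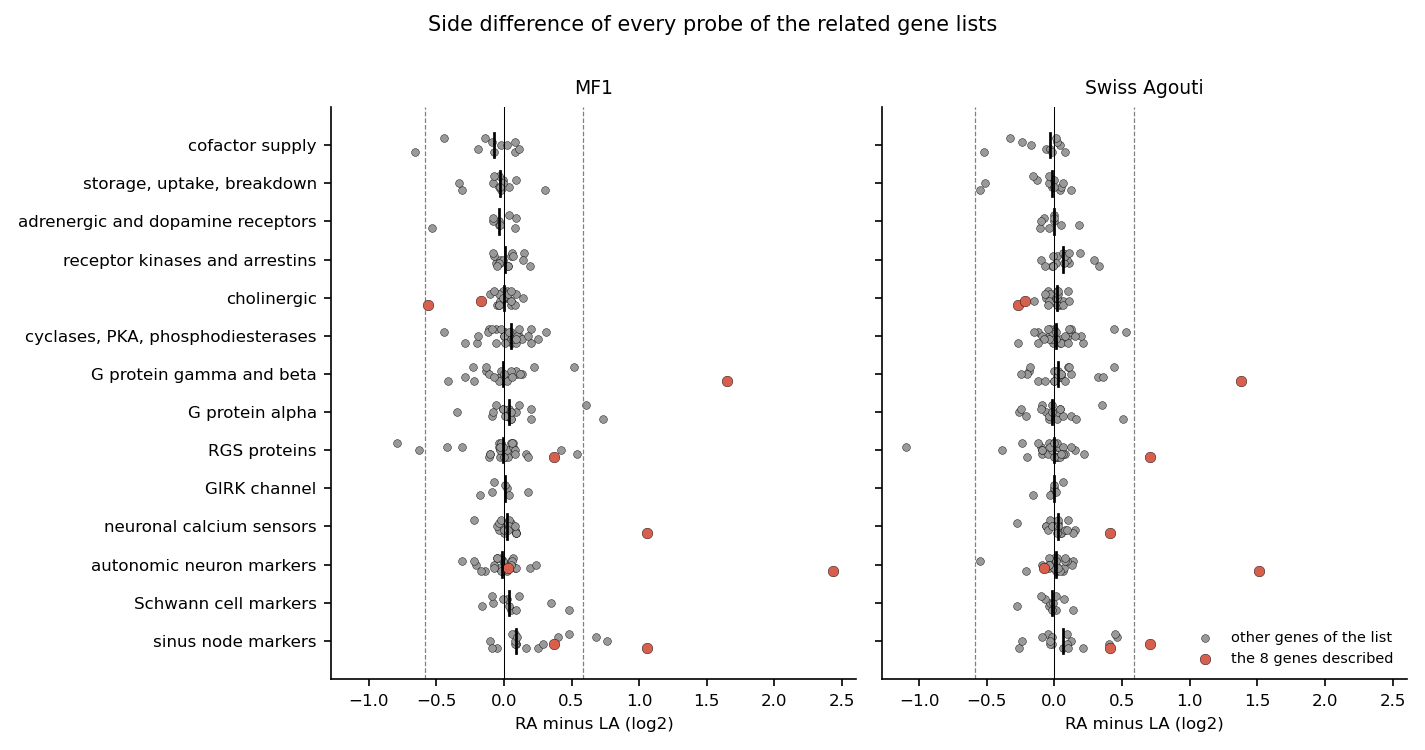
RA minus LA in log2 (horizontal axis) of every probe of 14 gene lists in MF1 (left) and Swiss Agouti (right). Large points are probes of the 8 genes described, grey points the other probes of a list, and short black lines the median of those others. Dashed lines mark a 1.5-fold difference. The list medians lie between -0.07 and 0.09, and Dbh stands at the right end of the neuron markers.

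No marker of the cells that make catecholamines passed, apart from Dbh itself. Among autonomic neuron markers other than Dbh and Th (20 of 22 genes, 24 probes), 0 passed in either strain, with 2 in MF1 and 3 in Swiss Agouti at an unadjusted p under 0.05. The widest difference of the list was that of the Slc6a2 probe given above, -0.55 in Swiss Agouti, lower in RA at an adjusted p of 0.00151 (limma) with a fold-change under 1.5. The mean of these 24 probes per array was 0.00 to 0.02 in RA and 0.00 to 0.08 in LA of MF1 mice, and -0.02 to 0.03 in RA and -0.01 to 0.04 in LA of Swiss Agouti mice. Npy, a co-transmitter of sympathetic neurons, had RA minus LA of -0.21 (SE 0.12) in MF1 and -0.09 (SE 0.05) in Swiss Agouti, and Stmn2, a stathmin of growing neurites, had -0.17 (SE 0.09) and -0.21 (SE 0.09). Tubb3, the tubulin of neurons, had 0.05 (SE 0.07) and -0.04 (SE 0.05), and Phox2a, a regulator of noradrenergic neurons, had -0.01 (SE 0.06) and 0.08 (SE 0.06). Chromaffin cell markers (8 of 10 genes, 11 probes) and Schwann cell markers (8 of 13 genes, 11 probes) had 0 passed probes in both strains. At an unadjusted p under 0.05 the chromaffin list had 0 in MF1 and 1 in Swiss Agouti, and the Schwann list 2 in MF1 and 0 in Swiss Agouti. The chromaffin means per array were -0.01 to 0.02 in RA and -0.02 to 0.05 in LA of MF1 mice, and -0.02 to 0.00 in RA and 0.00 to 0.02 in LA of Swiss Agouti mice. Genes of nerve growth and guidance (15 of 18 genes, 29 probes) had 0 passed probes too, with 4 in MF1 and 3 in Swiss Agouti at an unadjusted p under 0.05. Sema3a, which repels growing sympathetic axons, led them with -0.40 (SE 0.11, limma adjusted p = 0.145) in MF1 and -0.11 (SE 0.06, adjusted p = 0.559) in Swiss Agouti. Whether any of these probes lay above background is unknown, since levels were removed.

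Vsnl1 and Rgs6 also stood in the list of sinus node markers, a structure of the RA. The other 8 of 12 genes measured there (17 probes) had 0 passed probes, with medians of 0.09 in MF1 and 0.06 in Swiss Agouti. At an unadjusted p under 0.05 there were 5 in MF1 and 6 in Swiss Agouti, beside 10.9% and 12.6% of all probes. The mean of the 17 probes per array was 0.02 to 0.16 in RA and -0.20 to -0.06 in LA of MF1 mice, and did not overlap between the sides there. In Swiss Agouti mice it was -0.05 to 0.09 in RA and -0.08 to 0.00 in LA. The 17 include the 3 probes of Gja5, which is also on the atrial muscle list and had 0.51 in MF1. The mean was not taken without Gja5, so the gap in MF1 cannot be assigned to the sinus node. Tbx3, a transcription factor of the sinus node, had 0.48 (SE 0.16, adjusted p = 0.245) in MF1 and 0.45 (SE 0.08, adjusted p = 0.0212) in Swiss Agouti at its probe ILMN_1247220 by limma. Its probe ILMN_3139514 had 0.29 (SE 0.13) and 0.40 (SE 0.07), and its probe ILMN_3061990 had -0.09 (SE 0.07) and 0.10 (SE 0.06). Cacna1g, a T-type calcium channel, had 0.40 (SE 0.06, adjusted p = 0.0165) and 0.46 (SE 0.10, adjusted p = 0.0395) at its probe ILMN_1241838. Of its other probes, ILMN_1256998 had 0.25 (SE 0.08) and 0.21 (SE 0.05), and ILMN_1251322 had 0.08 (SE 0.05) and -0.05 (SE 0.05). Gja5, a connexin of atrial muscle and the conduction system, differed at its probe ILMN_2691641 by 0.76 (SE 0.16, limma adjusted p = 0.0684) in MF1 and -0.24 (SE 0.16, adjusted p = 0.614) in Swiss Agouti, and averaged 0.51 and -0.09 over its 3 probes. Shox2, Isl1 and Tbx18 had differences of -0.09 to 0.10 over all probes and both strains. The part of sinus node tissue in the values of Dbh, Gng13, Vsnl1 and Rgs6 was not tested.

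Genes of RA myocytes, ventricular muscle and fat cells were also read in these arrays. Bmp10, a gene of RA myocytes that the study itself picked from these arrays, was higher in every RA array than in every LA array, with RA minus LA of 2.08 in MF1 and 3.65 in Swiss Agouti. Myl2, the myosin light chain of ventricular muscle, had 0.45, 4.38, 4.10 and 5.62 in RA, against -0.40, -0.75, -0.46 and -0.83 in LA of Swiss Agouti mice, and -0.63, 1.53, 0.44 and 1.14 in RA, against -0.21, -0.42, -0.65 and -0.58 in LA of MF1 mice. The 7 probes of 6 ventricular marker genes averaged 0.00 to 0.98 in RA and -0.13 to 0.08 in LA of Swiss Agouti mice, and 1 of them, Myl2, passed there (limma adjusted p = 0.0352, up to 0.108 with 1 array left out). In MF1 they averaged -0.23 to 0.05 in RA and -0.20 to 0.22 in LA, and none passed. None of the other ventricular probes passed in Swiss Agouti. The median of the list was 0.09 in MF1 and -0.03 in Swiss Agouti, where 3 of the 7 probes lay above 0. Myl3, a light chain of ventricular and slow muscle, had -1.36 (SE 0.31, limma adjusted p = 0.0856) in MF1 and 0.16 (SE 0.21) in Swiss Agouti, and Pln, phospholamban, had -0.44 (SE 0.27) and -0.15 (SE 0.09). Dbh was 0.48 in the first Swiss Agouti RA array, that with the lowest Myl2 of its group, and this was above every LA array. Gng13 was 0.39 and Rgs6 was 0.34 in that array, above every LA array too, whereas Vsnl1 was -0.17, within the LA values. All 4 genes thus had their lowest Swiss Agouti RA value in the array with the least Myl2. For Gng13 and Rgs6 it lay close to their values in array 4, 0.42 and 0.35, where Myl2 was highest. In MF1 the lowest Myl2 of RA was in array 1 too, where Vsnl1 and Rgs6 were lowest. Dbh, at 1.31, and Gng13, at 1.07, were not lowest in that array. Cidea, a lipid droplet gene of fat cells, had 0.91 (SE 0.25, limma adjusted p = 0.158) in MF1 and 0.23 (SE 0.16) in Swiss Agouti, and 0 of 8 fat cell probes passed in either strain. Adipoq, a fat cell gene, was 3.11 in the fourth Swiss Agouti RA array and 1.59 in RA and 1.26 in LA of MF1 number 2. The part of ventricular or fat tissue in the side differences was not tested.

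The genes most like Dbh were those with the highest Pearson correlation to it over the 8 arrays of a strain, taking the lower of both strains. They were Vsig4 (0.976), Tbc1d9 (0.976), Fxyd3 (0.973), Adm (0.964) and Cd207 (0.958). All points share the RA and LA groups, so that any gene that separates the sides scores high. Vsig4, a complement receptor of tissue macrophages, had 0.78, 0.80, 1.02 and 0.70 in RA, against -1.92, -1.40, -1.50 and -2.05 in LA of MF1 mice. The sides of Vsig4 were likewise apart in Swiss Agouti. Cd207, a lectin of Langerhans cells, had 1.47, 1.14, 1.34 and 1.26 in RA, against -3.06, -2.91, -2.79 and -2.96 in LA of MF1 mice. Adm, the vasodilator peptide adrenomedullin, had 1.71, 1.29, 1.68 and 1.11 in RA, against -1.34, -1.46, -1.57 and -1.58 in LA of MF1 mice, where RA arrays 1 and 3 were the highest as they were for Dbh. Fxyd3, a regulator of the sodium pump, had its lowest Swiss Agouti RA value, 0.60, in array 1, as Dbh did. Other orders within a side differed from that of Dbh. In Swiss Agouti RA, Cd207 was highest in array 1, at 2.09, Adm lowest in array 2, at 0.85, and Vsig4 lowest in array 4, at 1.34. In MF1 RA, Fxyd3 was lowest in array 2, at 0.64, and Dbh in array 4, at 0.66. Of the 8 other probes, Gng13 had correlations with Dbh of 0.946 in MF1 and 0.886 in Swiss Agouti, Rgs6 had 0.746 and 0.941, and Vsnl1 had 0.906 and 0.692. Ddc had 0.546 and 0.819 although its differences were small, Th had 0.196 and -0.481, Pnmt had -0.245 and 0.075, and the Chrm2 probes had -0.717 and -0.459, and -0.513 and -0.673.

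**Figure D5:**
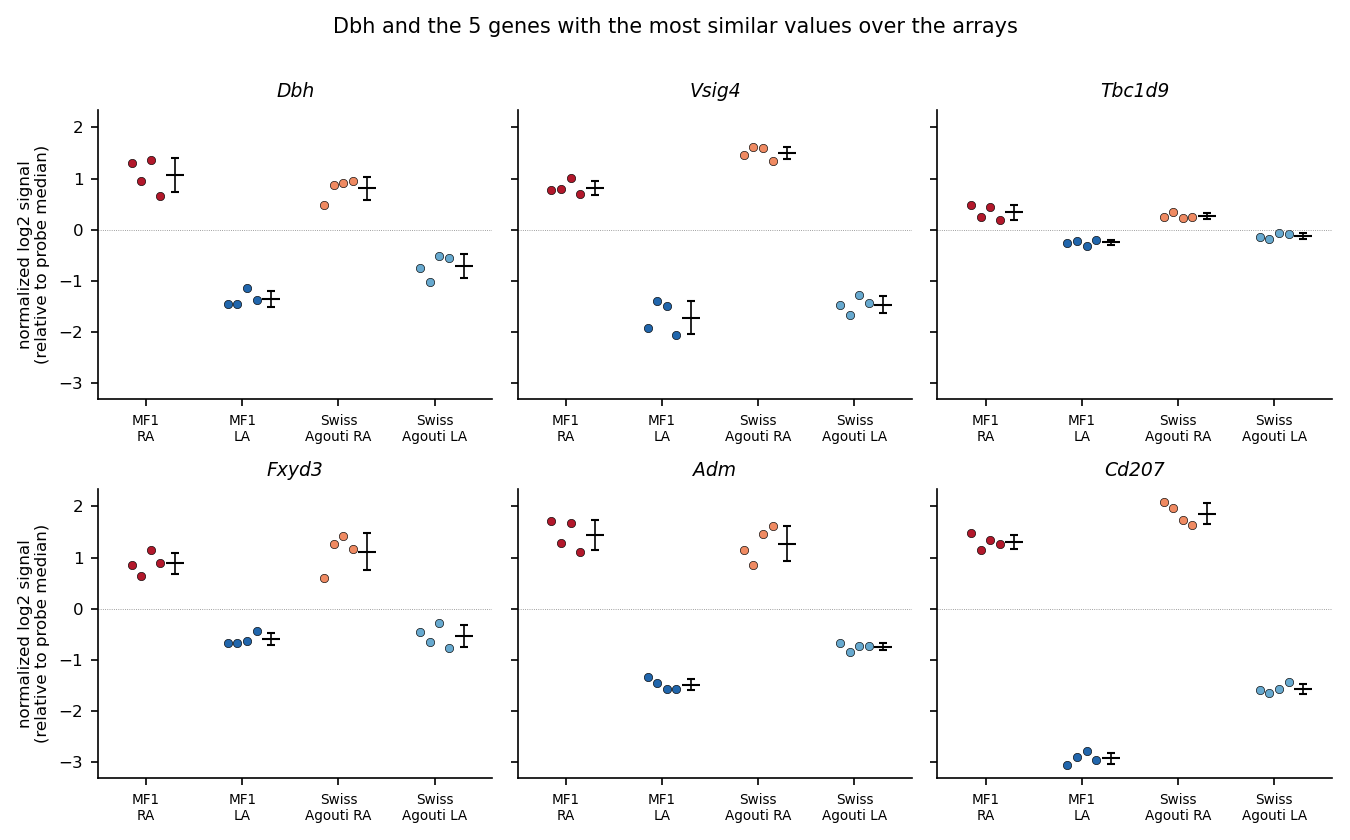
Normalized log2 signal relative to the probe median (vertical axis) of Dbh and the 5 genes most like it in each array, with RA left of LA for MF1 and then Swiss Agouti and bars of mean ± SD (n = 4). All 6 separate the sides in both strains, and Cd207 has the widest gap in MF1.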

How the data were processed

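RA and LA of MF1 and Swiss Agouti mice (4 arrays per side and strain) were measured on Illumina MouseRef-8 v2 arrays. The deposited values are log2 signals that the authors extracted with Genome Studio, quantile normalized within each dataset and set relative to the median of all samples in GeneSpring. They were used unchanged, and no level, detection limit or difference in level between strains can be had from them. A fold-change of a probe near background may be understated. A second table of signals before normalization was not used, because the names of its 16 columns match no sample label. Precision is limited by the few arrays per group. The study gives 4 mice for each of these datasets, so that the RA and LA arrays of a strain would come from the same 4 mice. The main fits, without a block, treat the sides as separate samples. The labels number the mice within a strain but do not state that RA and LA with 1 number came from 1 animal. Where samples are not stated to come from separate mice, p-values measure the spread between arrays.

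Probes were named from the platform annotation (23978 with 1 gene name, none with several, and 1719 unnamed here). limma 3.58.1 in R 4.3.3 (lmFit, eBayes, no block) was run within each strain over all 25697 probes with Benjamini-Hochberg adjustment. The strain difference was fitted on all 16 arrays as 4 groups. The script was tested on simulated data. Arrays with the same number deviated together in MF1 (correlations of 0.23 to 0.499 across probes), so the numbers pair those arrays, from the titles and this check, and blocked values are given where they change a call in MF1. Alternatives were the number as a block, ordinary variance, all 16 arrays in 1 fit, array weights, subtracted array medians, the adjusted p alone, named probes alone, each array left out in turn, and the mean over probes of a gene.

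The members and lists were chosen with earlier results of these data known. The rule for genes that could be named took all member probes, in each list genes with a passed probe and up to 3 genes with the largest mean difference of both strains (mean over probes), and the 5 genes most like Dbh, and not all of these are given values. Gngt2, Rgs4, Rgs17, Cacna1g, Slc18a2, Maoa, Adra1b, Adra2c, Npy, Tubb3, Phox2a, Shox2, Isl1 and Tbx18 were named outside that rule, after their values were seen. Promoter windows came from RefSeq (GRCm38.p6), which held 11 windows of 8 of the 9 genes. Probes sharing sequence with related genes were not examined.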

Additional observations from a re-analysis of the deposited data

Results flagged for a closer look

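In 132 groups of 4 arrays, for 33 probes, 10 groups (7.58%) held 1 array whose gap to the nearest of the others, as a share of the group's range, was above Dixon's critical value, where chance gives about 5%. Dbh was lowest in Swiss Agouti RA array 1, at 0.48, with the nearest at 0.88. Gng13 was lowest in MF1 RA array 2, at 0.42 (nearest 1.07). Chrm2 probe ILMN_2971508 was highest in MF1 RA array 1, at 0.14 (nearest -0.05). Slc6a2 probe ILMN_2669736 was highest in the same array, at 0.12 (nearest -0.02). Adcy4 probe ILMN_2847004 was highest in MF1 RA array 4, at 0.57 (nearest -0.14), and Cacna1g probe ILMN_1256998 was lowest there, at -0.01 (nearest 0.26). Rgs17 was highest in Swiss Agouti RA array 1, at 0.62 (nearest 0.00), and so was Gngt2 probe ILMN_1246056, at 0.28 (nearest 0.11). Cyb561 was highest in MF1 LA array 2, at 0.63 (nearest 0.31), and Drd2 in Swiss Agouti LA array 3, at 0.28 (nearest 0.00).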

How the results depend on the processing

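RA minus LA of the 9 probes, followed in both strains, moved by less than 1 SD in all 270 comparisons with an alternative, and no passed value changed sign. The count of probes passed in MF1 (203) was 51 with ordinary variance and 346 with the adjusted p alone, and 117 to 289 with 1 array left out, the most without LA array 2. In Swiss Agouti (162) it was 37 and 518 with these 2 settings, and 134 to 196 with 1 array left out. Of the 9 probes, 3 passed in MF1, 1 with ordinary variance and 2 to 3 with 1 array left out, and in Swiss Agouti 3, 2 and 2 to 3. Across probes, MF1 LA array 2 deviated most from its group means, with an SD of 0.23, where the other MF1 arrays had 0.10 to 0.15. The cause of the changes in count was not tested. The strain difference was called for 2 probes, for 5 with array weights, 0 with ordinary variance, 0 with the replicate number as a block and 0 to 15 with 1 array left out. Its value for Ddc, 0.00, was 0.02 with array weights and -0.05 to 0.05 with 1 array left out, and that of Chrm2 probe ILMN_2971508, 0.05, was -0.03 to 0.11.

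The fit with a replicate block, which pairs arrays by number, passed 292 probes in MF1 and 165 in Swiss Agouti. The differences of Dbh, 2.43 and 1.51, are the same in it by arithmetic, since each number holds 1 RA and 1 LA array. In Swiss Agouti, arrays with the same number had correlations of -0.112 to 0.138, and other numbers up to 0.33. Of 4 LA arrays, 1 correlated best with its own number. Weak correlations cannot show whether arrays with 1 number came from 1 mouse, so which RA and LA arrays pair there stays unknown. Apart from Cyb561, Gnao1 and Rgs4 in MF1, the block changed no call, by adjusted p and fold-change together, of the 33 probes followed in it. The centred values set no limit on detection, and 4 arrays per side bound the precision.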
